A study of Homo sapiens with 2 samples.

Results

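SR proteins and heterogeneous nuclear ribonucleoproteins (hnRNPs) were followed across 2 arrays of Ca9-22 cells, a line established from a gingival carcinoma. The members were chosen by gene symbol, by a rule that uses no measured value but was set with earlier results of these arrays known. They are the probe sets whose single annotated symbol begins with SRSF, HNRNP or TRA2, or is PTBP1, PTBP2, PTBP3, RBM39, SF3B1, SF3B2, SF3B3, U2AF1 or U2AF2. A probe set is a group of short oligonucleotides on the array that reads 1 transcript region. This gave 157 probe sets for 41 genes, of 41091 probe sets for 19775 genes that carry a single symbol. One pseudogene probe set was left out. The symbol rule also took in HNRNPD-DT, a non-coding transcript that starts next to HNRNPD and encodes no hnRNP. It lay below the measuring floor on both arrays, as did both probe sets of SRSF12, so 39 genes with 129 probe sets were measured.

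The control cells carried an empty vector and the other cells a vector for RUNX2, a runt-domain transcription factor. Both were stably transduced and had been selected with blasticidin for the same period, and the labels do not say whether they were pools or single clones. Each group held 1 array, so no difference has a replicate check, no test was made and no p-value is given. Levels are deposited intensities in arbitrary units, with the array labelled RUNX2 multiplied by 0.966 to equalise the 2% trimmed means. A measuring floor was set at the middle intensity of either array, 55.3 (empty vector) and 51.8 (RUNX2), and a value under it was raised to it, which makes the ratio a bound. Fewer cells expressing a gene and less RNA per cell cannot be told apart. Ratios are log2 of the array labelled RUNX2 over the empty vector. The brightest measured probe set stood for its gene, and the others are given beside it, singly or by their range, for the members.

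Pre-mRNA splicing removes introns in the spliceosome. SR proteins, which carry arginine-serine repeats, bind exonic enhancers and mostly favour inclusion of an exon, whereas many hnRNPs bind silencers and favour skipping. U2AF and SF3B recognise the 3' end of the intron. Many genes of these families limit their own output by including a conserved poison exon, which sends the transcript to nonsense-mediated decay, so several transcript forms of 1 gene are common.

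The 3 measured probe sets of RUNX2 disagreed. In the array labelled RUNX2, 216994_s_at was 4.17-fold higher, at 204 and 854, and 221282_x_at was 3.47-fold higher, at 102 and 353. The brightest, 232231_at, was 4.03-fold lower, at 1746 and 433. Each direction below therefore rests on the label. All 7 oral keratinocyte markers with a probe set of their own were measured, KRT5 at 8842 and 12581. By their brightest probe sets 6 of the 7 lay above 0, and 2 were at least 2-fold higher, against 1.41% of all genes. These were KRT14 at 586 and 1579 (2.69-fold) and ITGB4 at 581 and 1481 (2.55-fold). The log2 ratios of the 4 ITGB4 probe sets ran from -0.11 to 1.35. Of 4 leukocyte markers with a probe set, 0 exceeded the floor. One of 6 fibroblast markers was measured, COL1A1, a collagen also made by some carcinoma lines, at 1937 and 1553, as were 2 of 5 endothelial markers, PECAM1 at 69.4 and 55.5 and VWF at a like level. The share of these markers in the results below was not tested.

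No member gene reached a 2-fold difference by its brightest probe set. Over all 12729 measured genes, 1.41% passed 2-fold upwards and 1.47% downwards. At 1.5-fold, 5 of the 39 genes were higher in the array labelled RUNX2 and 0 were lower, against 5.77% and 6.85% of all genes. The 5 were HNRNPM, SRSF3, TRA2B, SRSF7 and SRSF1. By level, 35 of the 39 members lay in the top 25% of genes. Of those 3183 genes, 1.23% passed 2-fold upwards and 0.723% downwards, and 5.69% passed 1.5-fold upwards and 5.06% downwards. The median log2 ratio was 0.13 over the members and -0.06 over all genes, and 23 of 39 members (59.0%) lay above 0, against 42.6% of all genes. When the arrays were set to equal medians, 10 members passed 1.5-fold upwards and HNRNPM passed 2-fold. That scaling raised the median of all genes to 0.03 and that of the members to 0.22. The excess of the members over all genes was 0.19 under either scaling. This was fixed in advance, since a single scaling factor shifts both medians by the same amount. Shares of all genes past either fold are not given for equal medians. Without probe sets ending in _x_at or _s_at, 31 members remained, with a median of -0.05 against -0.08 for all genes. HNRNPM, SRSF7, HNRNPA2B1 and HNRNPD then lay below 0, at -0.30, -0.14, -0.39 and -0.68, and HNRNPA1 and HNRNPC above it, at 1.14 and 0.22.

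**Figure D1:**
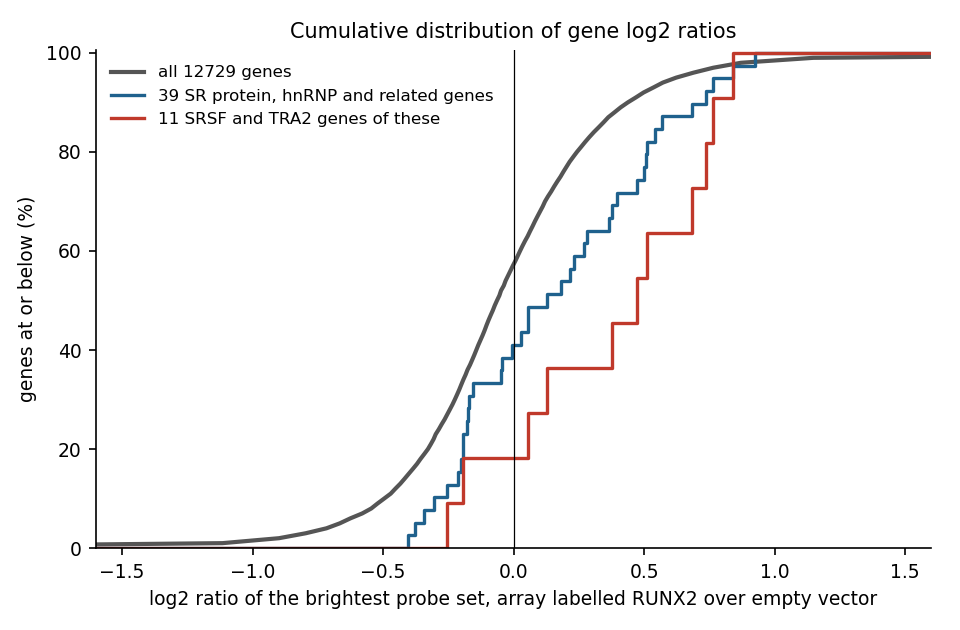
Cumulative share of genes (vertical axis, percent) by log2 ratio of the array labelled RUNX2 over the empty vector (horizontal axis), for all 12729 measured genes, the 39 members and the 11 SRSF and TRA2 genes among them. The members span -0.41 to 0.93, and 9 of the 11 SRSF and TRA2 genes lie above 0.

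SRSF3, the smallest SR protein and a regulator of both splicing and mRNA export, was higher in every measured probe set. Its brightest, 208672_s_at, read 2137 with the empty vector and 3825 under the RUNX2 label, a 1.79-fold difference. The others were 2.14-fold higher in 202899_s_at (1016 and 2174), 2.30-fold in 208673_s_at (456 and 1048), 2.23-fold in 232392_at (81.9 and 183) and by log2 0.85 in 235324_at (67.1 and 121). The 5 probe sets thus ran the same way from the brightest to the dimmest, between log2 0.84 and 1.20. A further probe set, 237485_at, was below the floor on both arrays.

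TRA2B, an SR-like protein that binds purine-rich enhancers, was also higher in all its measured probe sets. The levels were 1867 and 3167 in 200893_at, a 1.70-fold difference. In 200892_s_at they were 742 and 1549, and in 210180_s_at 151 and 299, which are 2.09-fold and 1.98-fold. Its paralogue TRA2A did not share this picture. The brightest TRA2A probe set, 204658_at, read 1017 and 1451, a log2 ratio of 0.51, while the 3 others had -0.16, -0.36 and -0.42. The mean and the median over the 4 probe sets put TRA2A at -0.11 and -0.26, the opposite sign.

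HNRNPM, which binds GU-rich stretches and is known for its part in the splicing changes of epithelial-mesenchymal transition, had the highest ratio of the 39 genes. The 2 bright probe sets gave nearly the same value. 1555844_s_at read 1408 and 2675, 1.90-fold higher, and 200072_s_at read 1381 and 2613, 1.89-fold higher. The 3 dim ones did not follow. Their log2 ratios were -0.30 in 1555843_at (167 and 135), -0.06 in 233605_x_at (104 and 99.6) and 0.11 in 214918_at (74.2 and 80.3), so that the median over the 5 was 0.11.

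SRSF7, a close relative of SRSF3 with a zinc knuckle, was 1.67-fold higher in 214141_x_at (1681 and 2804). The 2 dimmer probe sets of SRSF7 had log2 ratios of 0.52 and 0.41, and 213649_at had -0.14 (719 and 654). SRSF10, an SR protein that represses splicing when dephosphorylated, stayed under 1.5-fold in its brightest probe set, 206095_s_at (811 and 1125, log2 ratio 0.47). All 5 SRSF10 probe sets lay above 0, from 0.42 to 0.75. SRSF8, a retrogene-derived relative of SRSF2, had 0.38, and its 4 probe sets ran from 0.16 to 0.51.

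SRSF1, the founding SR protein also known as ASF or SF2, showed the widest disagreement among all members. The brightest probe set, 211784_s_at, read 1689 and 2712, 1.61-fold higher, and 208863_s_at read 841 and 1365, 1.62-fold higher. In the opposite direction, 226419_s_at went from 429 to 184, 2.33-fold lower. In 227164_at the level was 122 and 259, 2.12-fold higher. 201742_x_at had a log2 ratio of -0.06 at 666 and 639, and 229246_at was at least 1.49-fold lower, its value on the array labelled RUNX2 being at the floor. The span from the lowest to the highest of the 6 probe sets was 2.30 on the log2 scale. SRSF1 was the 1 member with a probe set at least 1.5-fold each way. Of 6165 genes with 2 or more measured probe sets, 26 (0.422%) had that pattern.

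**Figure D2:**
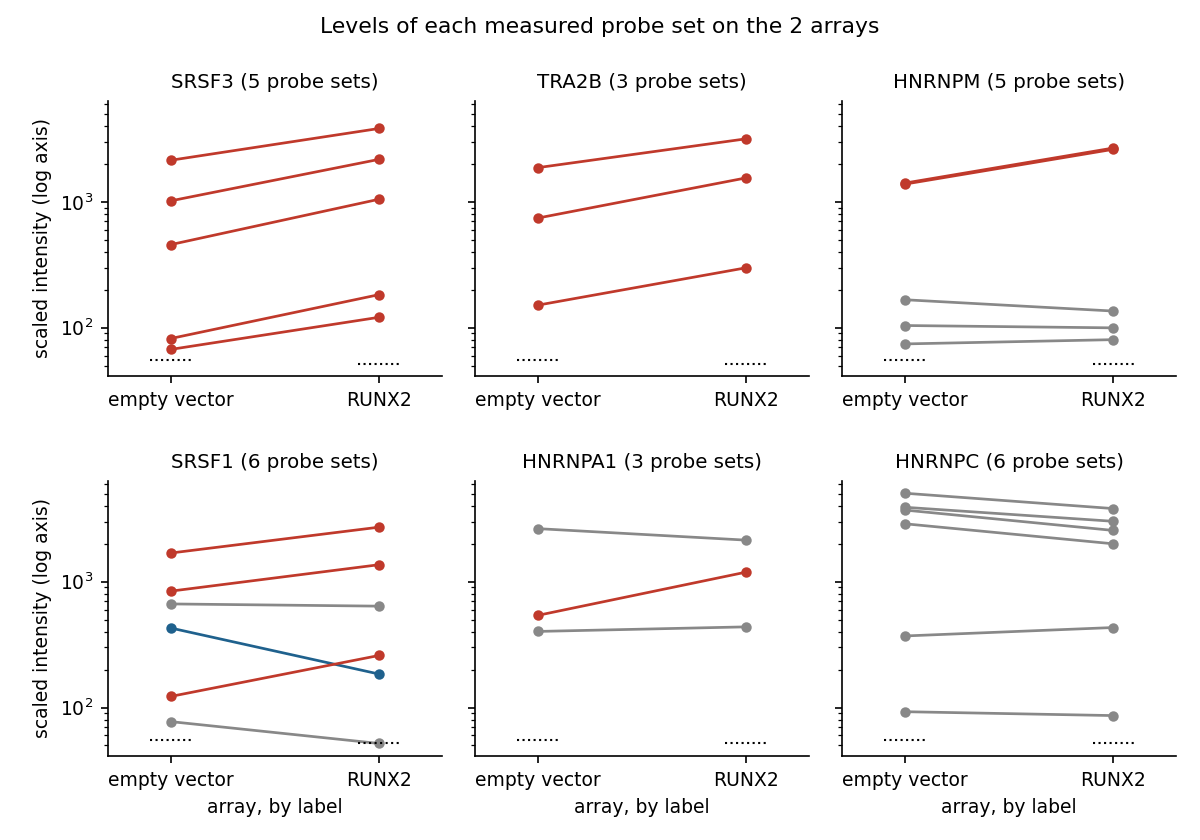
Scaled intensity (vertical log axis, arbitrary units) of each measured probe set of 6 genes on the array labelled empty vector and the array labelled RUNX2, with points of 1 probe set joined. Red lines are at least 1.5-fold higher, blue lines at least 1.5-fold lower, grey lines neither, and dotted marks show the floor of each array. All 5 SRSF3 and all 3 TRA2B lines are red, SRSF1 has red and blue lines, and 4 bright HNRNPC lines slope down without reaching 1.5-fold.

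The remaining SR protein genes were closer to 0. SRSF5, which is induced by insulin, had 0.13 and 0.12 in its 2 measured probe sets. SRSF6 split between its pair of probe sets. 208804_s_at read 2064 and 2146, a log2 ratio of 0.06, and 206108_s_at read 382 and 911, 2.39-fold higher and the highest ratio of any member probe set. SRSF4, a large SR protein, had -0.26 in 201696_at (1150 and 962) but 0.20 and 0.41 in a pair of dimmer probe sets and at least 0.17 in 239511_s_at, which was under the floor with the empty vector. The mean over its probe sets was 0.13. SRSF11 was lower in all 3 of its measured probe sets, with -0.19 in 200686_s_at (3605 and 3153), -0.26 in 213742_at and -0.80 in 200685_at, where the level was 818 and 469. Over the 9 measured SRSF genes the median log2 ratio was 0.38, with 7 above 0 and 3 at least 1.5-fold higher. SRSF2 and SRSF9 had no probe set with a single symbol and were not counted.

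Promoters of 4 members are shown because SRSF3, TRA2B and HNRNPM had the highest ratios and SRSF10 was above 0 in all 5 probe sets. SRSF10 was not alone in this, since SF3B1 was also above 0 in all 5 of its probe sets. SRSF7, not shown, had a higher ratio than SRSF10 (0.74 against 0.47). The sequences are the 250 bases before the RefSeq transcription start on GRCh38.p14, written 5' to 3' on the gene's strand. Capitals mark matches, on either strand, to motifs chosen with these results known: the RUNX core (TGTGGT or TGCGGT), E2F (TTTCCCGC, TTTGGCGC, TTTCGCGC or TTTGCCGC), the CCAAT box (CCAAT) and the E-box (CACGTG). The windows lie at chr6:36594112-36594361 on the plus strand (SRSF3), chr3:185938015-185938264 on the minus strand (TRA2B), chr19:8444725-8444974 on the plus strand (HNRNPM) and chr1:23980328-23980577 on the minus strand (SRSF10).
SRSF3: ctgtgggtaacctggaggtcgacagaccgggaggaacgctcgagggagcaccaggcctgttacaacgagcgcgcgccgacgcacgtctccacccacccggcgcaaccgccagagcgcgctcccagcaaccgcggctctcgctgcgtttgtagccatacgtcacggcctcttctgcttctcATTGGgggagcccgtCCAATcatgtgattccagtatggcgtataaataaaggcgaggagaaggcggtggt
TRA2B: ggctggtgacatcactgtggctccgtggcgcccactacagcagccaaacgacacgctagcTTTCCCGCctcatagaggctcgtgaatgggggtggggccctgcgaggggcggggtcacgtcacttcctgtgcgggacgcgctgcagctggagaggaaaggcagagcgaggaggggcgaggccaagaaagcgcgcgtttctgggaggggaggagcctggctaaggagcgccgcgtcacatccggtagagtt
HNRNPM: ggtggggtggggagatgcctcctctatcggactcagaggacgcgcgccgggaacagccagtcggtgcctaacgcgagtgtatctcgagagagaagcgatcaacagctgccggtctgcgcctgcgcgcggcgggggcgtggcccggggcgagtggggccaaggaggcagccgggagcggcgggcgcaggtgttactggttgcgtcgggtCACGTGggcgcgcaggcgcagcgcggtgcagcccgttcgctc
SRSF10: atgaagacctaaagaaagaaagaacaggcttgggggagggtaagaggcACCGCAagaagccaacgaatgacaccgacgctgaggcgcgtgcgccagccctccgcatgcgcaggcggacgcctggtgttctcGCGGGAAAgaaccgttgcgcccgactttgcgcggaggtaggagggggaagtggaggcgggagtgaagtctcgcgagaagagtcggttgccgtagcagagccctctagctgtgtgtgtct

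SRSF3 held 2 CCAAT boxes, between 70 and 51 bases before the start, TRA2B an E2F match, HNRNPM an E-box, and SRSF10 a RUNX core (as its reverse complement, ACCGCA) and an E2F match. The promoter table held 51 promoters for 35 of the 39 measured members, some genes having more than 1. A RUNX core stood in 5 of the 51 (9.80%), those of HNRNPH1, HNRNPH3, SRSF10, SRSF11 and SRSF6, and in 15.7% of 14954 promoters of all measured genes. An E2F match stood in 9 (17.6%, against 4.06%), a CCAAT box in 21 (41.2%, against 32.9%) and an E-box in 8 (15.7%, against 8.06%). These promoters belonged to 8, 18 and 6 of the 35 genes, so some genes counted more than once. The promoters of all measured genes were not matched to the members by level. In the 4 windows no match overlapped another. A match describes the letters of the window and does not show binding.

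The hnRNPs of the A/B and D families package nascent transcripts and often oppose SR proteins. Their 7 measured genes had a median log2 ratio of -0.05, with 3 above 0 and 0 past 1.5-fold. HNRNPAB had 0.57 in its only probe set (3041 and 4515), HNRNPA2B1 had 0.54 in its brightest (3793 and 5517) but 0.07 and -0.39 in others, and HNRNPD, the AU-rich element binding protein AUF1, had 0.50 (2826 and 4000). HNRNPD ran from -0.68 in 213359_at, where the level was 848 and 528, to that 0.50, over 6 probe sets. HNRNPDL went from -0.38 to 0.59 over 5, with -0.20 in the brightest.

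HNRNPA1, the abundant antagonist of SRSF1 in splice site choice, read 2640 and 2138 in 214280_x_at, a log2 ratio of -0.30. In 222040_at the level was 540 and 1192, 2.21-fold higher, and in 221919_at 402 and 438. HNRNPA3 had a like split, with -0.19 in 211929_at (1882 and 1647), -0.31 in 211930_at and 0.87 in 211932_at, which read 701 and 1280. The direction of either gene therefore depended on the probe set chosen. Processed copies of both genes exist in the genome, and intensities of probe sets that match such copies cannot be split between them. HNRNPA0 had -0.05, with 0.25 and -0.07 in its other probe sets.

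HNRNPC, which binds uridine tracts and masks cryptic splice sites in Alu elements, had the lowest ratio of all members. Its brightest probe set, 214737_x_at, read 5046 and 3809, 1.32-fold lower, and 3 other bright ones had log2 ratios of -0.37, -0.53 and -0.54. The 2 dim ones had -0.10 and 0.22. HNRNPK, a KH-domain protein that binds C-rich RNA, was higher in both of its probe sets, at 6349 and 8176 (log2 ratio 0.36) and at 4053 and 5726 (0.50). HNRNPU, the scaffold attachment factor SAF-A, had 0.27 in 200594_x_at (4566 and 5510) and 0.47 to 0.59 in the 3 others. HNRNPR had 0.23 in its brightest probe set and 0.41 and -0.35 in the others. HNRNPUL1 had -0.01 and -0.21, and HNRNPUL2 had -0.17 in its brighter probe set and 132 on both arrays in the other. The 7 measured genes of this group, HNRNPM included, had a median of 0.23, with 4 above 0, and -0.09 without probe sets ending in _x_at or _s_at.

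The hnRNPs F and H bind G-runs. HNRNPH3 had -0.38 in 208990_s_at (1480 and 1137) and between -0.13 and -0.02 in 3 others, HNRNPH1 had -0.18, with -0.15 and 0.03 in others, and HNRNPF had 0.18, for a median of -0.18 over 3 genes. Among HNRNPL, HNRNPLL and the polypyrimidine tract proteins the median was -0.05 over 5 genes. HNRNPL had 0.05 and 0.12, and HNRNPLL had 0.22 in its brightest probe set and -0.02 and -0.42 in the others. PTBP1, the widely expressed repressor of many exons, had -0.05 in its only measured single-symbol probe set, 211270_x_at (2251 and 2179). Its neuronal paralogue PTBP2 had -0.17 in 218683_at (421 and 374) and 0.38 in a dim probe set (59.9 and 77.7). PTBP3 was below 0 in all 5 probe sets, with -0.34 in the brightest, 224617_at (8313 and 6552).

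Factors of the 3' splice site stayed under 1.5-fold either way in all 18 measured probe sets. Over all measured probe sets, 7.08% were at least 1.5-fold higher and 6.09% lower. SF3B1, the U2 snRNP subunit that contacts the branch site, was at 4035 and 4114, and its 5 probe sets had log2 ratios from 0.03 to 0.21. SF3B2 had -0.15, with -0.53 in a dim probe set, and SF3B3 had 0.51 in 200687_s_at (340 and 483) against -0.16 in 200688_at (132 and 118). U2AF1, which reads the AG at the intron end, had 0.40 (1609 and 2118) and was above 0 in all 3 measured probe sets, and its partner U2AF2 had 0.28 (432 and 526) and -0.02. RBM39, a U2AF-like factor, was below 0 in all 4 probe sets, from -0.49 to -0.01, with 3032 and 2612 in the brightest. The 6 genes had a median of 0.16, with 4 above 0.

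**Figure D3:**
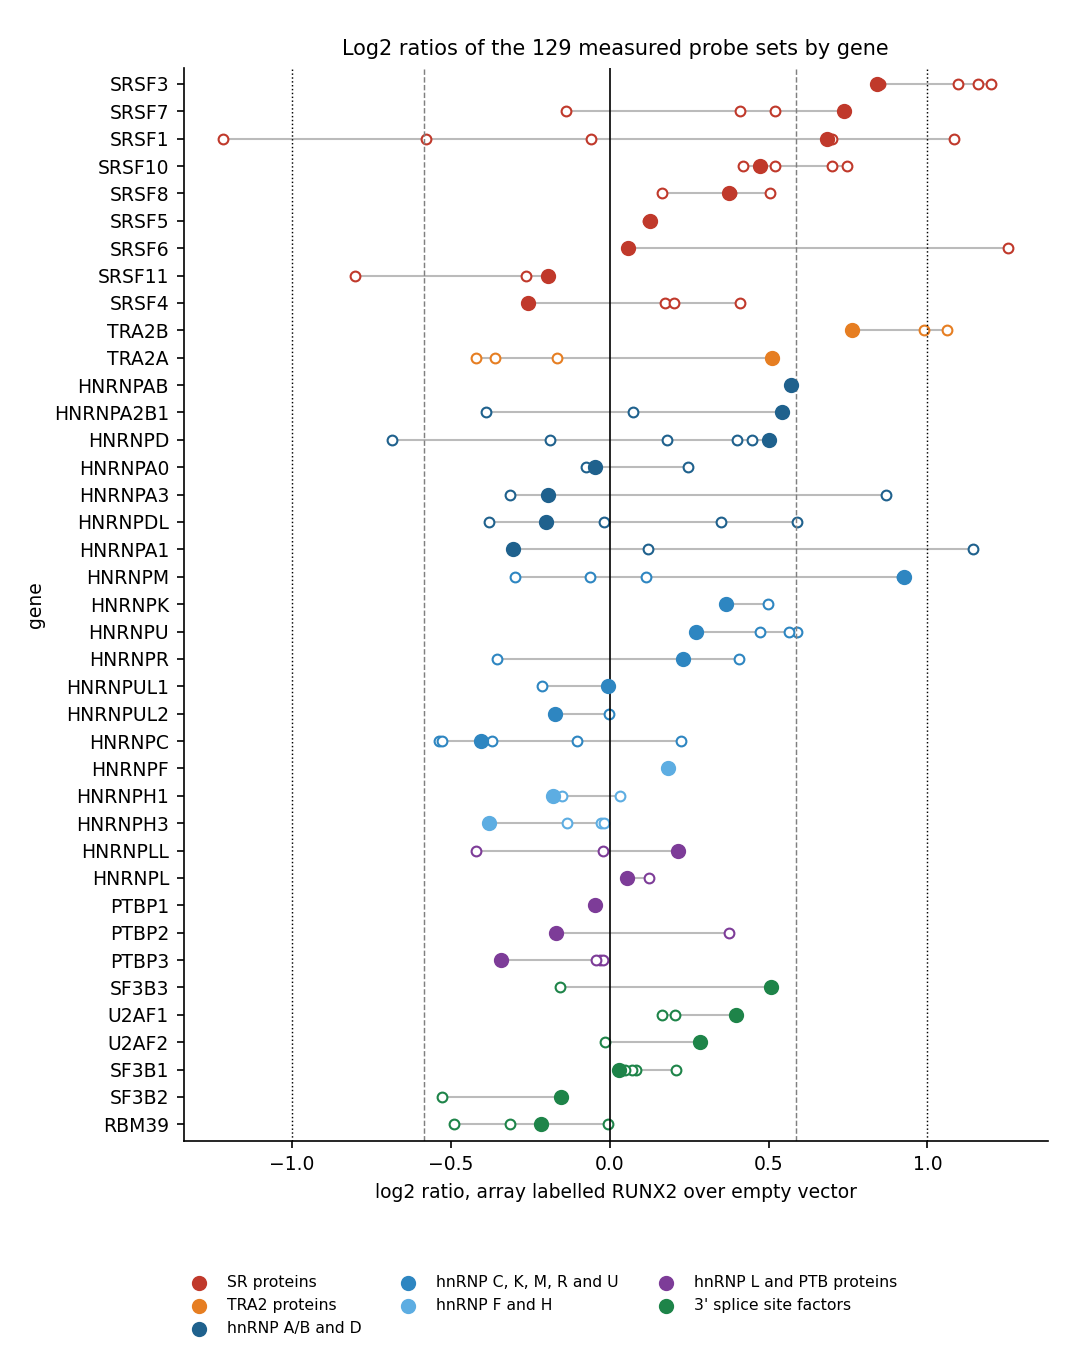
Log2 ratio of the array labelled RUNX2 over the empty vector (horizontal axis) for the 129 measured probe sets, 1 line per gene (vertical axis), coloured by role. Filled points are the brightest probe set, open points the others, dashed lines mark 1.5-fold and dotted lines 2-fold. SRSF3 and TRA2B lie wholly to the right of the upper 1.5-fold line, and SRSF1 spans from -1.22 to 1.08.

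Probe set by probe set, 7 of 129 passed 2-fold upwards and 1 downwards, against 1.64% and 1.12% of all 23332 measured probe sets. The 7 belonged to 5 genes, 3 of them to SRSF3 and 1 each to SRSF1, SRSF6, TRA2B and HNRNPA1. At 1.5-fold, 21 probe sets of 11 genes were higher and 3 of 3 genes were lower (SRSF1, SRSF11 and HNRNPD), against 7.08% and 6.09%. Probe sets of 1 gene share its transcripts and are no independent replicates.

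Of the 36 members with 2 or more measured probe sets, 11 lay wholly above 0, 7 wholly below and 18 (50%) on both sides. Among all such genes 26.9% lay wholly above, 33.1% wholly below and 40% on both sides. The ratios of 6 members were at least 2-fold apart between their highest and lowest probe set (16.7%), against 5.34% of 6165 genes. The 6 were SRSF1, HNRNPA1, HNRNPM, SRSF6, HNRNPD and HNRNPA3. This span widens with the number of probe sets, from 2.25% of genes at least 2-fold apart with 2 probe sets to 28.5% with 6 or more. SRSF6 was the 1 of 10 members with 2 probe sets, HNRNPA1 and HNRNPA3 were 2 of 10 with 3 (against 6.36%), HNRNPM 1 of 6 with 5 (18.7%), and SRSF1 and HNRNPD 2 of 3 with 6 or more. None of the 7 members with 4 was 2-fold apart (against 8.43%). Within a gene, log2 ratios varied with an SD of 0.39 over the 36 members and 0.29 over all 6165 genes.

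**Figure D4:**
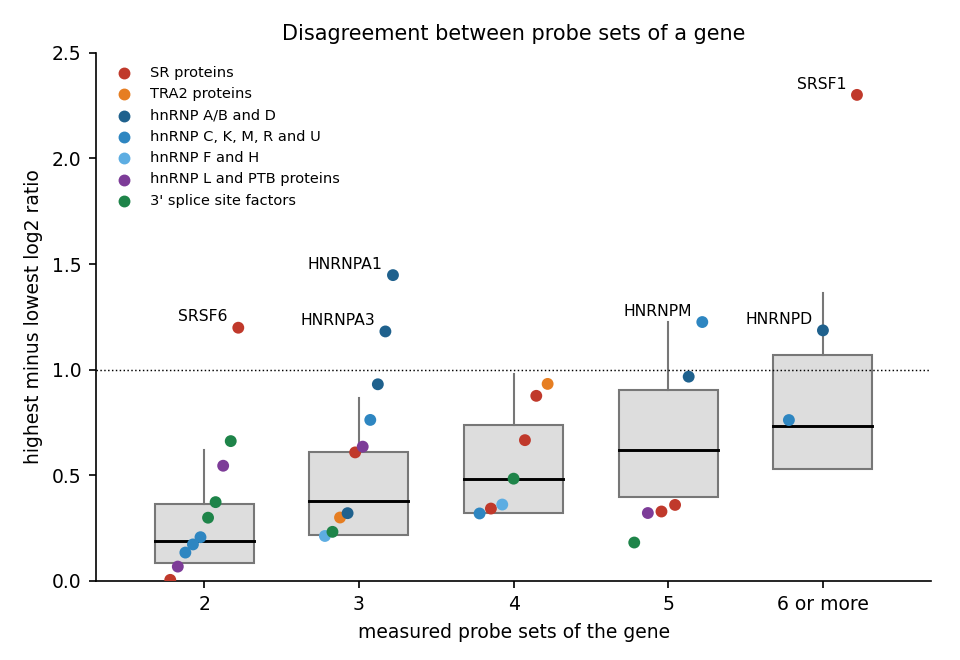
Highest minus lowest log2 ratio of a gene (vertical axis) by its number of measured probe sets (horizontal axis). Boxes give the quartiles and median over all genes, whiskers reach the 90th percentile, points are the 36 members coloured by role, and the dotted line marks 2-fold. The 6 named members lie above the line, SRSF1 highest at 2.30.

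The kind of probe set moved with these values. A suffix _s_at marks probe sets that can read several transcripts, _x_at those with oligonucleotides shared with other sequences, and a plain _at those designed to be unique. The 50 _s_at probe sets of the members had a median log2 ratio of 0.21, with 24.0% at least 1.5-fold higher, and the 59 _at probe sets had -0.01, with 11.9%. Over all genes the medians were 0.02 and -0.06, with 8.17% and 6.82%. Within the 23 members that had both kinds, the _s_at mean exceeded the _at mean in 14 (60.9%), by a median of 0.07. Over 2682 genes with both kinds this was 60.3%, also by a median of 0.07. Which transcript forms each probe set reads was not analysed here.

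Other splicing genes, from 6 lists, were set beside the members. SR protein kinases and phosphatases, which switch SR proteins on and off, had a median of -0.07 over 11 measured genes, with 0 past 1.5-fold either way. SRPK1 was at 1260 and 1251, and CLK1 had 0.14. Other SR-related proteins had -0.03 over 27 genes, again with 0 past 1.5-fold. Sm and U1 or U2 snRNP proteins had 0.14 over 25, with 5 at least 1.5-fold higher, among them the branch point binder SF1 (584 and 994), the core Sm protein SNRPB (1345 and 2113) and SF3B4 (177 and 278). The other SF1 probe set had only 0.19 (92.9 and 106), and that of SNRPB had 0.61. Tri-snRNP and helicase genes had 0.10 over 39, and PRPF31, a tri-snRNP bridge, was the 1 past 1.5-fold (330 and 499), with 0.46 in its other probe set.

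Among 42 other alternative splicing regulators the median was 0.06, with 4 at least 1.5-fold higher and 0 lower. RBM3, a cold-inducible RNA-binding protein, read 442 and 1137 in its brightest probe set, a 2.57-fold difference, and was 1.48-fold higher in the other. SFPQ, a paraspeckle protein, was 1.96-fold higher in 201586_s_at and 1.64-fold in 201585_s_at but had -0.33 and -0.57 in the 2 others. Its partner PSPC1 had 0.77 in its brightest probe set (270 and 461) and -0.36 in another. ESRP1, the epithelial splicing regulator, had -0.41 and -0.11. Exon junction and nonsense-mediated decay genes had a median of 0.27 over 12, with 4 at least 1.5-fold higher and 0 lower. Without _x_at and _s_at probe sets this median was 0.02, below the 0.19 of Sm and U1 or U2 proteins and the 0.12 of tri-snRNP genes. Of 19 listed genes, 12 had a probe set of their own. The decay factors among them, UPF and SMG genes, all stayed under 1.5-fold by their brightest probe sets. UPF1 had -0.43 there and -0.37 in its other probe set. SMG9 had -0.18, SMG6 -0.14, SMG8 0.08, UPF2 0.28 and SMG5 0.44. ALYREF, an mRNA export adaptor, was 1.98-fold and 1.89-fold higher in its pair of probe sets (1097 and 2177 in the brighter). NCBP1, of the nuclear cap-binding complex, was 2.02-fold higher in 1 probe set, with a bound of -0.04 in the other, MAGOHB had 0.75, and RBM8A had 0.68, with a range of -0.36 to 0.89 over its 6 probe sets. By its brightest probe set, no gene of the 6 lists was at least 1.5-fold lower. By any probe set, 7 of the 156 measured genes were at least 1.5-fold lower and 23 at least 1.5-fold higher. Over all 12729 measured genes, 1148 had a probe set at least 1.5-fold lower and 1267 had one at least 1.5-fold higher. Among the 7, PNISR, an SR-related protein, was below 0 in all 6 probe sets, from -1.27 to -0.34. CIRBP, a cold-inducible protein like RBM3, reached -1.05 but had 0.17 in its brightest probe set. RBM15 reached -0.87, LSM8 -0.79 and PPIG -0.71, with -0.23, -0.10 and -0.30 in their brightest probe sets. The highest PPIG probe set had 0.25. Upwards, SYNCRIP reached 1.92, the highest ratio of any probe set in the lists, but had -0.11 in its brightest. All 6 lists were written with earlier results of these arrays known.

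**Figure D5:**
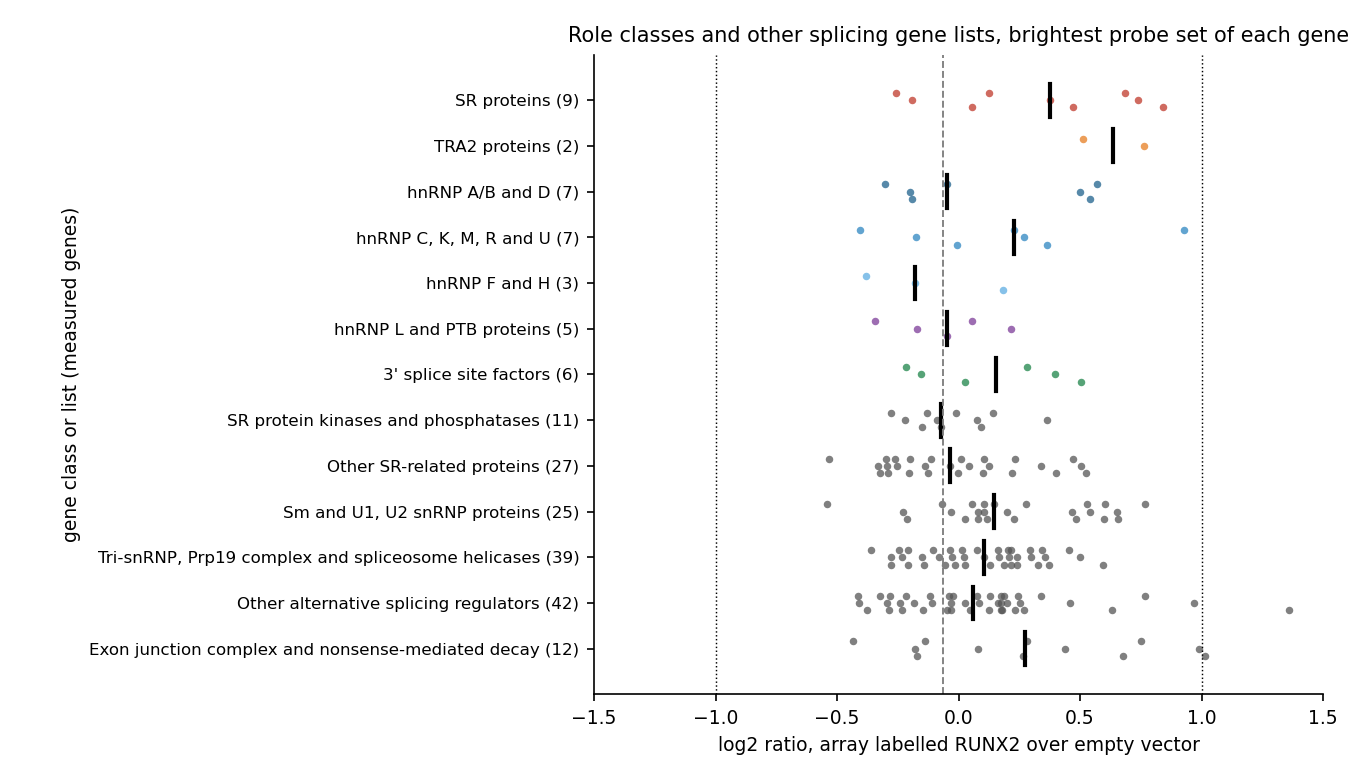
Log2 ratios of the brightest probe set per gene (horizontal axis) for the 7 role classes of the members and 6 other splicing lists (vertical axis, number of measured genes in brackets). Points are genes, black bars medians, the dashed line the median of all genes at -0.06, and dotted lines 2-fold. TRA2 proteins (2 genes) and SR proteins have the highest class medians, 0.64 and 0.38, and RBM3 lies farthest right. With the median over probe sets in place of the brightest, TRA2 proteins stood at 0.36 and SR proteins at 0.38.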

How the data were processed

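Total RNA from 1 sample per vector was labelled with biotin and hybridised to 1 Affymetrix array each, per the labels' protocols. The authors deposited 1 linear intensity for each of 54675 probe sets. MAS5 is named in the submitters' processing notes, and its version and scaling target are not given in the sources used here. Intensities ran from 3.92 to 23248 outside the 62 control probe sets, which were left out. With 1 array per group, precision is limited by the number of arrays.

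By the platform annotation, 1 symbol was given to 41091 probe sets, several to 1801 and none to 11721. Of the first, 41037 were matched by Entrez ID to RefSeq genes of GRCh38.p14. Samples were grouped by title. The array labelled RUNX2 was scaled to equal 2% trimmed means, and probe sets above the median of at least 1 array were measured. Genes were counted at 2-fold and 1.5-fold, with no test. Named genes were members past 1.5-fold, the 8 highest and 8 lowest, those with probe sets at least 2-fold apart in ratio, a fixed set of family genes (of which SRSF2 has no probe set of its own) and up to 3 per list and direction. RBM8A, SRPK1, CLK1, ESRP1, PNISR, CIRBP, RBM15, LSM8, PPIG, SYNCRIP and members outside this rule were named after their values were seen. So were UPF1, UPF2, SMG5, SMG6, SMG8 and SMG9, and the markers KRT14 and ITGB4. The members and lists were chosen with earlier results of these data known. The 11 alternatives covered scaling, floor and choice of probe set. Scripts ran in Python 3.11.15 with pandas 2.3.3, statsmodels 0.14.6 and matplotlib 3.10.9, and were tested on simulated data. The simulation planted changes wider than 2-fold in brighter genes, with a narrower spread of ratios than in these arrays. It does not test the 1.5-fold counts or the disagreement between probe sets.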

Additional observations from a re-analysis of the deposited data

How the results depend on the processing

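No paired analysis was possible because each group held 1 array. A value was taken to have moved if it shifted by more than 0.29, the SD of log2 ratios within a gene, and a count if it changed by over 1.5 times. Of 209 values for groups of genes under the 11 alternatives, 199 kept within these limits. Some of these could not have moved. The deposited scale and equal medians each add a single constant, smaller than 0.29, to every log2 ratio. Group medians therefore stayed within the limit under both by construction, and so did the count of members with probe sets at least 2-fold apart. Members at least 2-fold higher numbered 1 with equal medians, 1 with the mean and 1 with the median over probe sets, and 3 without _x_at and _s_at probe sets, in place of 0. Members at least 1.5-fold higher numbered 10 with equal medians and 3 with the mean and 3 with the median over probe sets, in place of 5. Without _x_at and _s_at probe sets 2 members were at least 1.5-fold lower, in place of 0, and the class of hnRNP C, K, M, R and U stood at -0.0899 in place of 0.23. With no floor, 10 members had probe sets at least 2-fold apart in place of 6. Shares over all genes are not given under the alternatives, so these counts have no background beside them.

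Of 386 values for 36 single genes, 346 kept within the limit. The other values came from the mean over probe sets (14), the median (13) and the omission of _x_at and _s_at probe sets. Scaling or floor gave 0. For the deposited scale and equal medians this was fixed in advance, since the constant they add is smaller than the limit. A lower, higher or absent floor cannot change a bright gene, and SRSF3, HNRNPM and HNRNPC kept identical values. The 346 thus include values that could not have moved, and are no measure of how stable the ratios are. The sign turned in 19 of the 386 values, over 13 genes, and in 14 of these, over 10 genes, by more than the limit. Of the 14, 7 came from the omission of _x_at and _s_at probe sets, 4 from the mean and 3 from the median. The omission put HNRNPM at -0.30, SRSF7 at -0.14 and SFPQ at -0.57, all past 1.5-fold upwards as reported, HNRNPD at -0.68, HNRNPA2B1 at -0.39, HNRNPA1 at 1.14 and HNRNPC at 0.22, since other probe sets then stood for them. The mean turned HNRNPA1 (0.32), HNRNPA3 (0.12), SRSF4 (0.13) and TRA2A (-0.11), and the median HNRNPA1, SRSF4 and TRA2A. Under the omission NCBP1 had only a lower bound, -0.0411, whose sign is not settled. The excess of the members' median over that of all genes was 0.03 under the omission and between 0.14 and 0.24 under the others. With the deposited scale and with equal medians it could not differ from the 0.19 reported. Signal over background limits the 28 member probe sets below the floor on both arrays, which have no ratio.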

Other observations

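The array holds 19 probe sets whose annotation joins a symbol of these families to another symbol. They name no single gene and entered none of the counts above. The 3 annotated to SRSF2 together with the microRNA gene MIR636, had log2 ratios of 1.07 in 200753_x_at (1007 and 2114), 0.96 in 214882_s_at (1583 and 3086) and 0.82 in 200754_x_at (2208 and 3906). The pair annotated to SRSF9 and GATC had 0.27 and 0.47. The 3 annotated to HNRNPA3 and its pseudogene HNRNPA3P1 ran from 0.35 to 0.85, while those of HNRNPA3 alone ran from -0.31 to 0.87. The 5 annotated to PTBP1 and MIR4745 ran from 0.06 to 0.23. The probe set annotated to HNRNPA1 and HNRNPA1P10 read 11245 and 10189, a log2 ratio of -0.14, and the one joined to further HNRNPA1 copies also had -0.14. The probe set annotated to HNRNPH2 and its readthrough with RPL36A had 0.42.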
